A study of Danio rerio with 45 samples.

Results

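The 200 RNAs described here were lost between 4 and 6 hours post fertilization (hpf) in uninjected control explants and held their level over the same 2 hours in explants given cycloheximide (CHX). The members were chosen by measured values of these libraries. On group means of log2(CPM + 1), where CPM is the usual count scaled by the library's total, A was the difference between 6 and 4 hpf in controls and B the same difference with CHX. Genes with B within -0.5 to 0.5 and a control mean of at least 10 CPM at 4 hpf were ranked by A, and the 200 with the most negative A were taken out of 31465 genes in the table. Genes with symbols starting rpl, rps or mt- were left out. CPM are shares of a library, so lost and held refer to shares of counts. The amount of RNA per explant was not analysed here. The series is bulk RNA-seq of zebrafish (AB strain) explants of the animal pole, the upper tissue of the blastula. At the 128-cell stage, 1 animal-pole cell received mRNA of ndr2, which encodes a secreted Nodal signal. The groups were 10 pg ndr2 with CHX, then 2, 6 and 10 pg ndr2 without it, and uninjected controls, each at 4, 5 and 6 hpf with 3 libraries. CHX was present at 50 µg/µl from 20 min after injection until harvest. Both CHX and 10 pg ndr2 set the CHX explants apart from controls, and only CHX sets them apart from the 10 pg explants. CHX without ndr2 was not analysed here.

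An egg is loaded with RNA made in the ovary, and the early embryo runs on that store before its own genome is switched on. The store is then cleared in waves, by factors that came with the egg and by others that the embryo must first make, among them a family of microRNAs. CHX stalls ribosomes on the mRNA, so it stops new protein from being made, and it also changes the state of mRNAs that are being translated. The youngest explants were of 4 hpf, after the genome of the embryo has begun to be read, and no egg or cleavage stage was analysed here, so the maternal origin of the members was not measured. Of 43 matched genes on a list of oocyte and egg genes, 4 were members (GDF9, WEE2, tdrd5 and CCNA1) and 5 belonged to the comparison set introduced with the choice of members. Members were 200 of all 31465 genes. They were also 200 of the 9364 with at least 10 CPM in controls at 4 hpf, a count without the rpl, rps and mt- genes. The comparison set also holds 200 genes, and whether the list holds more of either than other genes was not tested.

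Control levels of the members at 4 hpf ran from 11.4 to 1863 CPM, with a median of 56.9 CPM. These values and the next describe the choice and are not tested. A ran from -5.0 to -3.18 with a median of -3.48, and B ran from -0.49 to 0.49 with a median of -0.12. Over all 9364 genes of at least 10 CPM, the medians of A and B were -0.96 and -0.12. The last 3 genes inside the choice were trafd1, si:ch211-195m9.3 and ABHD18, with A of -3.18 each. The first 3 outside were ATXN2, TECPR2 and APBA3, with A of -3.17 each. Of 735 genes with A at or below that of the last member, 27.2% had B within the limits, 70.6% had a lower B and 2.18% a higher one. Of all 9364 genes of at least 10 CPM, 44.9% had B within the limits. For comparison, the 200 genes with the most negative A among those with B of -1 or lower were also taken, out of 1435. Their median A was -4.13 and their median B -1.58, and they include buc, which organizes the germ plasm, and BTG4, an adapter of the deadenylase complex in oocytes.

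**Figure D1:**
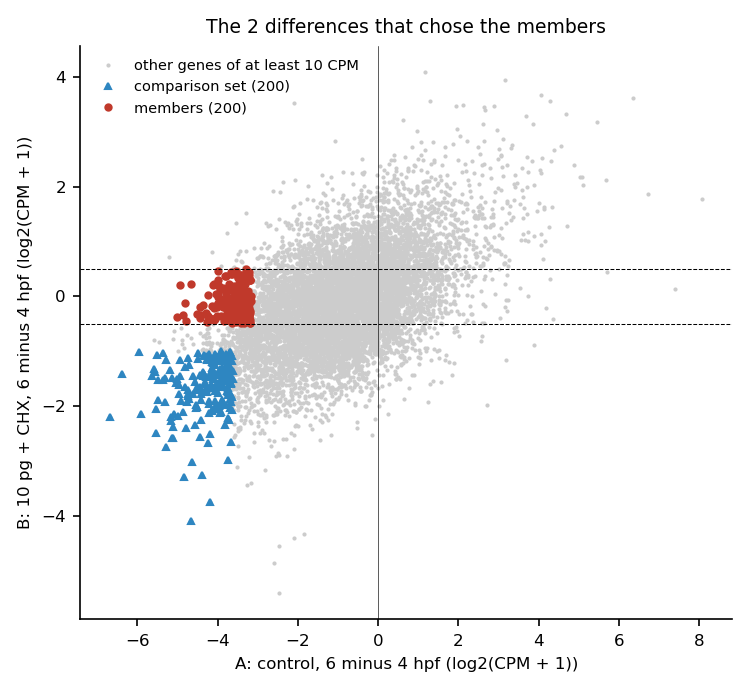
Each point is 1 of the 9364 genes with at least 10 CPM in controls at 4 hpf, without the rpl, rps and mt- genes. A is on the x axis and B on the y axis, both as differences of group means of log2(CPM + 1). The members (red) lie between the dashed lines at -0.5 and 0.5 and to the left of -3.17, and the comparison set (blue) lies at -1 or lower on the y axis.

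Totals of the libraries used ran from 12137856 to 28551066 counts. Replicate 3 of 10 pg with CHX and replicate 3 of 10 pg at 4 hpf held equal counts in all 31465 genes, and in other pairs of libraries at most 4.75% of detected genes were equal. Both were left out, so 43 libraries were used, with n = 2 in those groups and n = 3 elsewhere. At 5 hpf, replicate 2 of the controls stood apart, with a median of 4.82 CPM over the members, against 11.2 and 15 CPM in the other control libraries. Replicate 2 was also the lowest at 10 pg (6.90 CPM, against 10.6 and 12.3 CPM) and with CHX (49.4 CPM, against 65.2 and 69.4 CPM). The lowest was replicate 1 at 2 pg and replicate 3 at 6 pg. The part of this in the comparisons at 5 hpf was not tested. Summed levels of 18 enveloping layer markers, genes of the outer epithelium, stayed at 956 to 2447 CPM in all CHX libraries. In controls they were 1698 to 2201 CPM at 4 hpf, 6192 to 21453 CPM at 5 hpf and 17786 to 23687 CPM at 6 hpf. At 5 hpf they were 956 to 1887 CPM with CHX, against 8523 to 14356 CPM at 10 pg. Summed levels of 13 mesendoderm margin markers at that age were 245 to 1031 CPM with CHX, against 1283 to 1777 CPM at 10 pg and 562 to 624 CPM in controls. In CHX explants 9 of the 18 enveloping layer markers reached 1 CPM at each age, against 17 at 10 pg and in controls at 5 and 6 hpf. CPM are shares of a library, so fewer cells of a type and less RNA per cell cannot be told apart, and the part of these marker changes in the members' values was not tested.

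With CHX the median member was at a similar level at all 3 ages, while in every other condition it was far lower at 5 than at 4 hpf and lower again at 6 hpf. For controls, and for CHX at 4 and 6 hpf, this follows from the choice. The median member averaged 53.5, 65.7 and 51.7 CPM in CHX explants at 4, 5 and 6 hpf. In 2 pg explants it averaged 39.2, 7.87 and 2.33 CPM, and in 6 pg explants 47.8, 7.86 and 2.87 CPM. In 10 pg explants the values were 41.7, 9.97 and 3.20 CPM. In controls they were 56.9, 10.1 and 3.65 CPM. At 4 hpf the library medians overlapped between CHX explants (46.6 and 58.3 CPM) and controls (47.8 to 67.7 CPM). At 5 hpf they did not, with 49.4 to 69.4 CPM in CHX explants, 6.90 to 12.3 CPM in 10 pg explants and 4.82 to 15 CPM in controls.

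As a share of all counts, the 200 members made up 1.88, 2.04 and 1.76% in CHX explants at 4, 5 and 6 hpf, and 1.96, 0.407 and 0.138% in controls. The comparison set behaved otherwise under CHX, as its choice fixes for the ends of the series. Its share was 2.78, 1.58 and 0.902% in CHX explants and 2.30, 0.249 and 0.0934% in controls. Between 4 and 5 hpf the median difference with CHX was 0.19 log2 units for the members and -0.74 for the comparison set. At 5 hpf the library medians of the comparison set ran from 20.5 to 48.3 CPM in CHX explants, and replicate 2 lay far below the other CHX libraries, at 47.4 and 48.3 CPM.

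**Figure D2:**
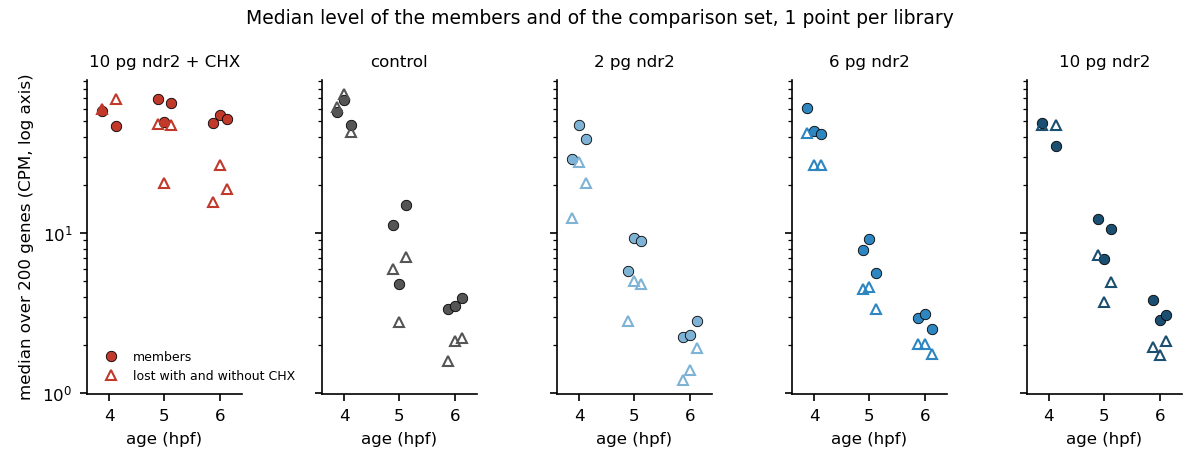
The y axis is the median CPM over 200 genes on a log scale and the x axis the age, with 1 point per library in 5 conditions, filled circles for the members and open triangles for the comparison set. The members' circles lie between 46.6 and 69.4 CPM at all ages with CHX, and at 4.82 to 15 CPM at 5 hpf in controls.

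Among the members with an oocyte or early cell-cycle role, GDF9, a growth factor made by the oocyte for the cells around it, had the third most negative A. GDF9 had 31.2, 28.0 and 27.7 CPM in CHX explants at 5 hpf, against 6.23, 1.34 and 3.84 CPM in 10 pg explants and 3.55, 0.747 and 4.03 CPM in controls. At 6 hpf it still had 33.0, 26.0 and 20.1 CPM with CHX, and at most 1.79 CPM in any 10 pg or control library. All CHX libraries lay above all 10 pg and control libraries at both ages. For controls at 6 hpf this follows from the choice. Against 10 pg at 6 hpf it is no separate result, since the CHX libraries of that age had entered the choice. The fitted change at 5 hpf was 2.62 ± 0.43 (log2, SE) for CHX over 10 pg, with an adjusted p of 6.8e-06 in edgeR's quasi-likelihood test.

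WEE2, the oocyte form of the Wee1 kinase that restrains Cdk1, was among the more abundant members. It had 589, 478 and 553 CPM in CHX explants at 5 hpf, against 105, 60.8 and 81.7 CPM in 10 pg explants and 102, 41.8 and 113 CPM in controls. CCNA1, a cyclin A of germ cells and early embryos, was the most abundant member. It had 2204, 2025 and 2222 CPM in CHX explants at 5 hpf, against 903, 442 and 632 CPM in 10 pg explants and 527, 238 and 1008 CPM in controls. At 4 hpf its CHX libraries held 2014 and 2521 CPM and at 6 hpf 2281, 2228 and 2160 CPM, so the libraries of the 3 ages overlapped. CCNA1 was higher with CHX by 1.39 ± 0.29 (adjusted p = 0.00017, edgeR), one of the smaller changes among the members called, and WEE2 by 2.40 ± 0.32 (adjusted p = 2.7e-07, edgeR).

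CPEB1 binds the 3′ end of stored mRNAs and controls their poly(A) tail and translation. Its CHX libraries spread widely at 5 hpf, with 282, 88.7 and 245 CPM, and lay above 20.4, 13.4 and 13.6 CPM in 10 pg explants. The change was 3.40 ± 0.49 (adjusted p = 9.1e-07, edgeR). tdrd5, a Tudor protein of the germ line, had 101, 55.6 and 81.3 CPM with CHX and 13.4, 5.62 and 13.6 CPM at 10 pg, a change of 2.56 ± 0.44 (adjusted p = 1.4e-05, edgeR). HK2, a hexokinase that starts the breakdown of glucose, had 118, 68.7 and 107 CPM with CHX and 11.9, 8.41 and 8.66 CPM at 10 pg. Its change was 3.03 ± 0.31 (adjusted p = 2.3e-09, edgeR). In CPEB1, tdrd5 and HK2, replicate 2 was the lowest CHX library at 5 hpf.

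**Figure D3:**
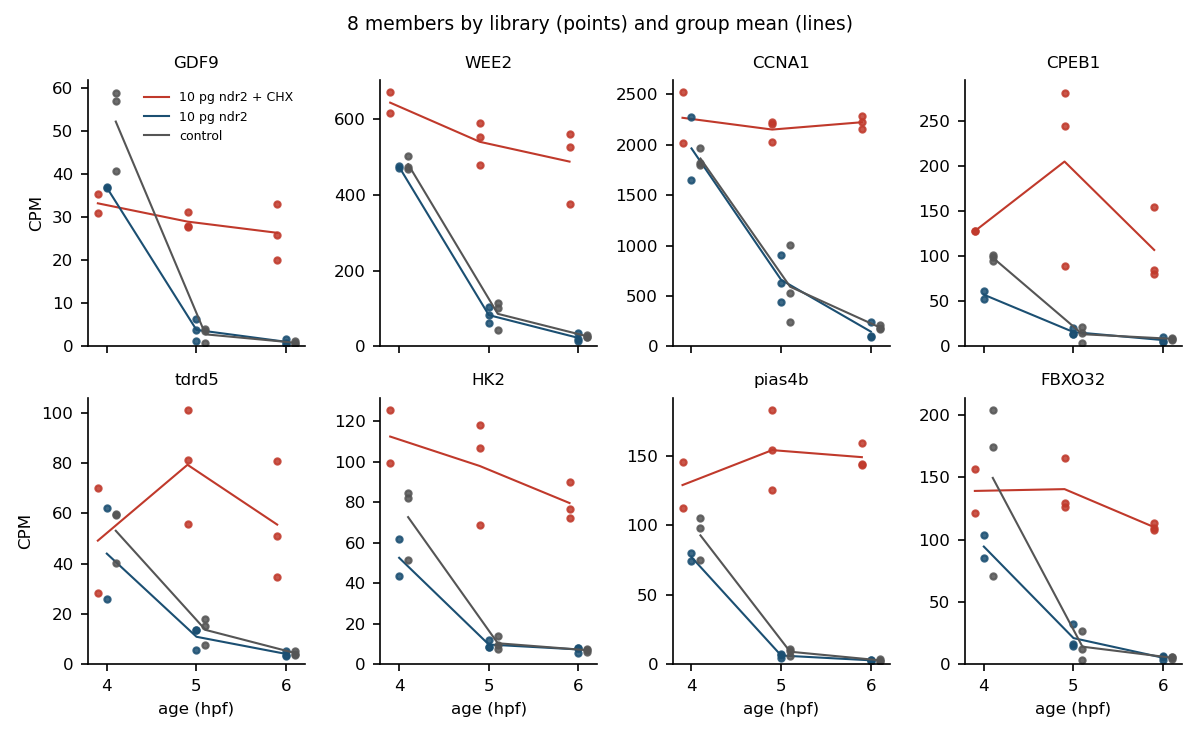
CPM of 8 members (y axis, from 0) by age (x axis), with 1 point per library and lines through the group means for 10 pg with CHX, 10 pg and control. In each panel the CHX points at 5 and at 6 hpf lie above all points of the other groups at that age, as for GDF9 with at least 20.1 CPM, against at most 6.23 CPM. For controls at 6 hpf this follows from the choice of members, and the CHX libraries of 6 hpf compared with 10 pg had entered it too.

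CHX against 10 pg at 5 hpf is a comparison in which no library had chosen the members, and its groups differ by CHX at the same dose. The words rose and fell are used of genes with a Benjamini-Hochberg adjusted p below 0.05 over the 21075 genes tested. Of the 200 members, 188 rose, 0 fell and 12 did not pass, with 25% of all genes tested called higher. Among the 9465 genes of at least 10 CPM in controls at 4 hpf, 39.7% were called higher. This count includes the 101 genes with rpl, rps or mt- symbols, which the 9364 genes leave out. The median change of the members was 2.40 log2 units (quartiles 1.83 and 2.88), against 0.03 for all genes. The comparison set gave 189 of 200 higher with a median of 2.64, a count and median close to those of the members. When scaled by library totals alone, the median of all genes was 0.36 and 192 members rose. The share of higher genes among all those called was then 64.1%, against 50.8% with TMM scaling.

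Against controls at 5 hpf, 188 members rose and 1 fell, with 24.1% of all genes called higher and 24.6% called lower, and 37.8% called higher among genes of at least 10 CPM. The median was 2.30, and 186 members rose in both comparisons. The comparisons share the CHX libraries. Without control replicate 2, the library that stands apart, 177 members rose. In the description of libraries, all CHX values lay above all 10 pg values at 5 hpf in 191 members and above all control values in 188. Of the 9465 genes tested of at least 10 CPM in controls at 4 hpf, 52.5% were separated in this way from 10 pg and 51.2% from controls.

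The largest rise was in si:dkey-73n10.1. It had 134, 98.9 and 98.6 CPM in CHX explants, against 5.25, 2.02 and 4.43 CPM in 10 pg explants, a change of 4.51 ± 0.42 (adjusted p = 4.7e-10, edgeR). pias4b, a ligase for the ubiquitin-like modifier SUMO, came next with 183, 125 and 154 CPM with CHX, against 7.57, 4.28 and 6.69 CPM at 10 pg. Its change was 4.32 ± 0.31 (adjusted p = 1.4e-11, edgeR). The groups were far apart in both genes. zgc:66483 rose by 3.77 ± 0.31 and USP45, a deubiquitinase, by 3.77 ± 0.48 log2 units. ftr81, of the fish-specific family of TRIM proteins, rose by 3.51 ± 0.39, and slc25a51a, of the mitochondrial carrier family, by 3.43 ± 0.57. MCF2L (ENSDARG00000075859) rose by 3.49 ± 0.47 and plekhg2 by 3.46 ± 0.51. In plekhg2, CHX replicate 2 stood apart from the other CHX libraries, with 64.8, 11.0 and 54.0 CPM with CHX and 4.13, 2.02 and 3.50 CPM at 10 pg.

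**Figure D4:**
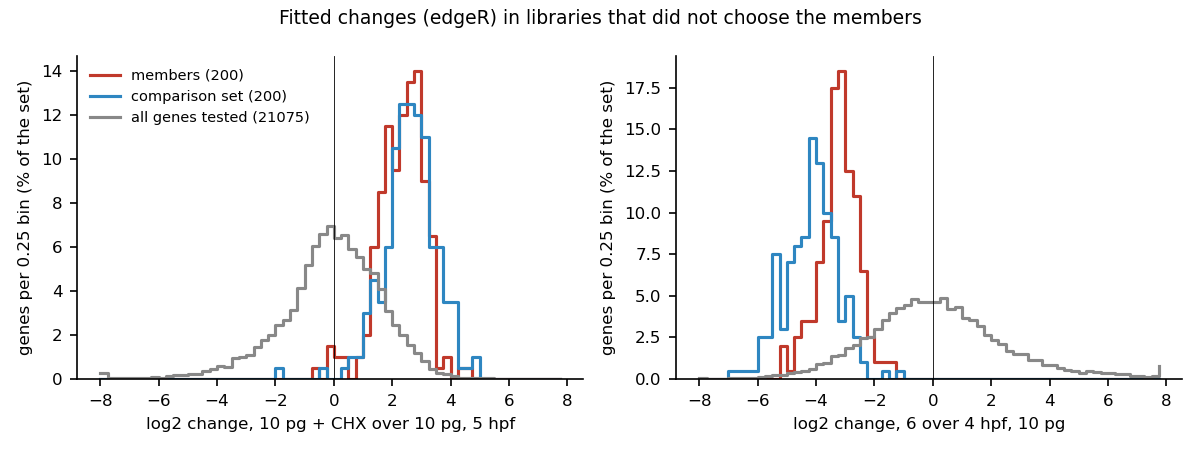
Share of each gene set (y axis, % per bin of 0.25) by fitted log2 change (x axis, values beyond 8 drawn at 8), for 10 pg with CHX over 10 pg at 5 hpf and for 6 over 4 hpf at 10 pg. Members (red) and comparison set (blue) lie largely together around medians of 2.40 and 2.64 in the first panel, with medians of -3.20 and -4.06 in the second, while all 21075 genes centre near 0.

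Grouped by known roles, with groups drawn up after the values were seen, the members cover many cell functions. Since 188 of all 200 members rose with CHX at 5 hpf, the direction within a role group follows that of the members and is no finding about the role. The 8 genes of oocyte and germ line include GDF9, CPEB1, zpax2, tdrd6b, RBM46 and taf4b, but not CCNA1. They rose by 1.52 to 3.40 log2 units with CHX at 5 hpf. Summed levels of 7 primordial germ cell markers at that age were 386 to 555 CPM in CHX explants and 281 to 467 CPM in 10 pg explants, and their part in these values was not tested. A group of 12 genes of ubiquitin and SUMO attachment or removal, which does not hold every member with such a role, rose by 1.46 to 4.32 log2 units. They include pias4b, USP45, the F-box proteins FBXO30, FBXO32, FBXO34 and FBXO45, the ligases rnf168, rad18, CBLB and PELI1 (ENSDARG00000091592), the cullin adapter LZTR1 and the deubiquitinase CYLD. FBXO32 had 126, 129.5 and 166 CPM with CHX, against 32.2, 16.1 and 14.3 CPM at 10 pg.

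Genes of DNA damage signalling and telomeres (rad18, rnf168, FANCC, PARPBP and POT1, which covers telomere ends) rose by 1.46 to 2.84. Factors of RNA polymerase III (bdp1, gtf3c2) and of tRNA modification (TRMT2A, TRIT1, dalrd3) rose by 1.51 to 3.09. In sugar and glycogen use, HK2, PGK2 (a phosphoglycerate kinase) and phka1a and PHKG2, an alpha and a gamma subunit of phosphorylase kinase, rose by 2.58 to 3.23. Polycomb subunit BMI1 (ENSDARG00000006010) had 284, 300.3 and 279.8 CPM with CHX and 35.6, 19.7 and 22.5 CPM at 10 pg.

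Of the 12 members that did not pass, ENSDARG00000112043, MGAT4A, ZNF326 and PACSIN3 were already more than 1 log2 unit lower with CHX than in controls at 4 hpf. ENSDARG00000112043 had the most negative difference of all members, at -1.80. MGAT4A, a sugar transferase of the Golgi, had 51.7 and 46.5 CPM in CHX explants at 4 hpf, against 148 and 99.5 CPM at 10 pg and 132, 137 and 126 CPM in controls. At 5 hpf it had 89.6, 69.4 and 66.3 CPM with CHX and 93.7, 39.2 and 56.4 CPM at 10 pg, so the groups overlapped. By 6 hpf the CHX libraries held 42.7, 49.7 and 41.9 CPM and the 10 pg libraries 15.8, 6.35 and 5.24 CPM. In 29 members every CHX library lay below every control library at 4 hpf, and in 14 every one lay above. Of the 9465 genes tested of at least 10 CPM in controls at 4 hpf, 10.6% lay below and 6.93% above in this way, and both groups had entered the choice of members. At 4 hpf the median difference of the members with CHX was -0.09 log2 units against controls and 0.31 against 10 pg explants. Over all genes of at least 10 CPM it was -0.04 and 0.07, and none of this was tested. The difference from controls was below -1 in 8 members, which include the 4 named here, SPIRE2 and chia.4, and above 1 only in tdrd6b. Relative to controls of 4 hpf, 191 members were within 1 log2 unit in CHX explants of 6 hpf and 9 were more than 1 unit lower. Both of these groups had entered the choice, and the same count over all genes is not given here.

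In CHX explants, 145 members were within 0.5 log2 units of their 4 hpf level at 5 hpf. Another 46 were higher than that and 9 lower, and these counts are not given over all genes. The median difference was 0.19 log2 units in the members and -0.01 over all 9364 genes of at least 10 CPM. The CHX libraries of 4 and 6 hpf had entered the choice of members, and none of this was tested. The difference was above 0 in 150 members, and in 4637 of the 9364 genes of at least 10 CPM. It was above 1 in AMOT, si:dkey-256h2.1, atp2a2a and LMBRD2, at 1.10, 1.05, 1.02 and 1.01. A further subset went the other way and was lower at 5 hpf with CHX. Its return by 6 hpf to near the 4 hpf level follows from the limits on B. zgc:100951, ENSDARG00000116570, ENSDARG00000077712 and ENSDARG00000114211 were the members more than 1 log2 unit lower at 5 than at 4 hpf in CHX explants, and they were singled out after their values were seen. zgc:100951 had 328 and 360.3 CPM with CHX at 4 hpf, 58.6, 138 and 53.2 CPM at 5 hpf and 451, 215 and 275 CPM at 6 hpf. In 10 pg explants it had 734 and 813 CPM at 4 hpf, 115, 36.4 and 65.8 CPM at 5 hpf and 25.2, 15.4 and 7.21 CPM at 6 hpf. At 5 hpf, therefore, the groups overlapped, with a change of -0.13 ± 0.45 (adjusted p = 0.83, edgeR). Replicate 2 was the highest CHX library in these 4 genes at 5 hpf, whereas it was the lowest by the median of all members (49.4 CPM, against 65.2 and 69.4 CPM).

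Levels of these 4 genes had pairwise Pearson correlations of 0.98 to 0.99 over the 43 libraries and 0.89 to 0.96 for deviations from group means. Library and depth are shared by the points. The table pairs no symbol with 3 of them. Whether they are near-identical copies that share reads could not be looked up here, so their separate counts are uncertain. ENSDARG00000112043, the member that fell against controls at 5 hpf (-1.68, adjusted p = 0.013, edgeR), had 8.32, 33.4 and 9.45 CPM with CHX and 68.2, 23.8 and 24.0 CPM in controls. At 4 hpf it already had 31.1 and 25.2 CPM with CHX, against 153, 74.8 and 87.1 CPM in controls. At 5 hpf the groups overlapped, and the call was lost without control replicate 1, without CHX replicate 1 and without CHX replicate 3.

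**Figure D5:**
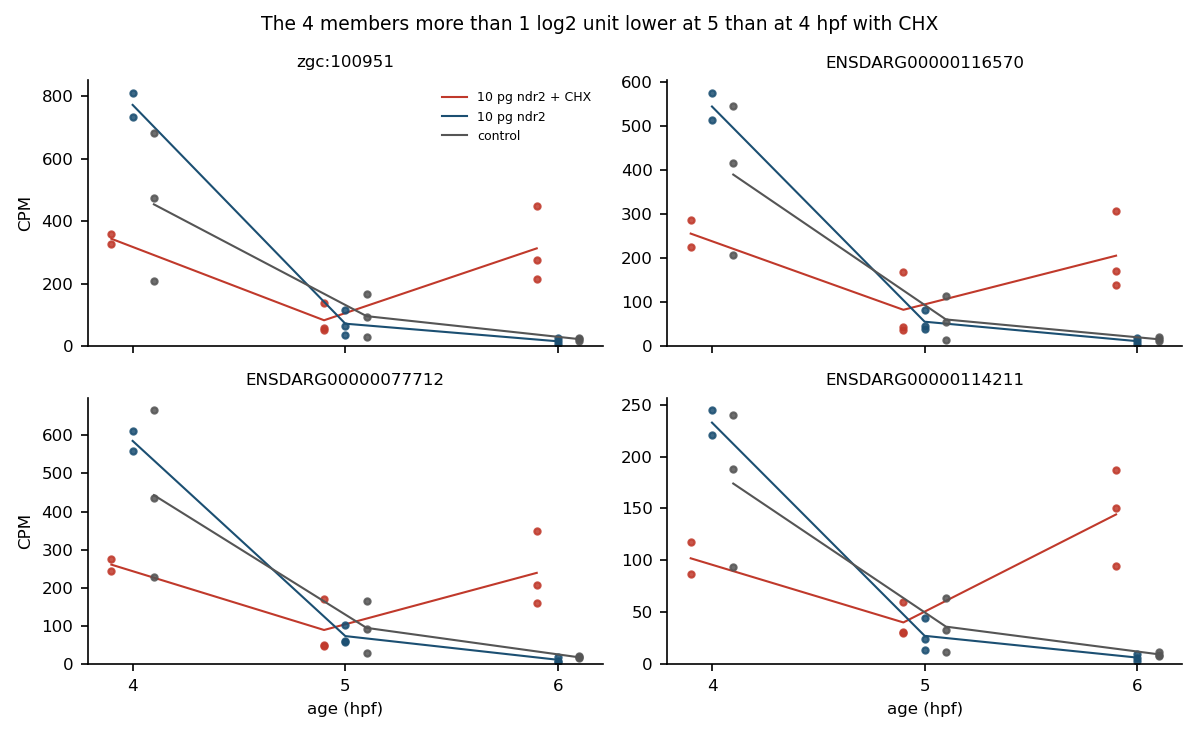
CPM (y axis, from 0) by age (x axis) for the 4 members that dipped with CHX, with 1 point per library and lines through group means for 10 pg with CHX, 10 pg and control. For zgc:100951 the CHX points drop to 53.2 to 138 CPM at 5 hpf and lie at 215 to 451 CPM at 6 hpf. Mean levels at 6 hpf near those of 4 hpf with CHX follow from the choice of members.

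Loss without CHX was also measured in the ndr2 explants, none of which had chosen the members. Between 6 and 4 hpf, all 200 members fell at 2 pg, all 200 at 6 pg and all 200 at 10 pg. Of all genes tested, 30.8%, 31.3% and 28.9% were called lower in these comparisons, and 43.1% at 10 pg among genes of at least 10 CPM in controls. The median change of the members was -3.52 at 2 pg, -3.44 at 6 pg and -3.20 at 10 pg, against -0.09, -0.12 and 0.00 for all genes. With library totals alone the median of all genes at 10 pg was -0.55, the median member stood at -3.75 and all 200 still fell. Of all genes called at 10 pg, 33.5% were then higher, against 49.4% with TMM scaling. In the comparison set 199 of 200 fell at 10 pg, with a median of -4.06.

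PGK2, which led the ranking in controls, had 1.60, 1.91 and 1.88 CPM at 6 hpf in 10 pg explants, against 91.2 and 67.9 CPM at 4 hpf, and fell by 4.90 ± 0.42 on the log2 scale. PRKCD (ENSDARG00000009208), a protein kinase C, had 5.59, 3.61 and 2.87 CPM, against 144 and 123 CPM at 4 hpf. Its change was -4.51 ± 0.44, and those of zgc:66483 and pias4b were -4.31 ± 0.34 and -4.27 ± 0.33. The chitinase gene chia.4 and ccdc117 changed by -4.03 ± 0.37 and -4.02 ± 0.36, si:dkey-256h2.1 by -3.85 ± 0.40 and si:ch73-95l15.5 by -3.49 ± 0.44. The smallest falls were in sox13 (a transcription factor, -1.41 ± 0.35), PHKG2 (-1.43 ± 0.41), rrbp1b (a ribosome-binding protein of the endoplasmic reticulum, -1.59 ± 0.32), atp2a2a (a calcium pump of the endoplasmic reticulum, -1.68 ± 0.61) and plekhg2 (-1.89 ± 0.53). sox13 had 9.94, 13.7 and 13.4 CPM at 6 hpf and 57.3 and 39.8 CPM at 4 hpf. Without 10 pg replicate 1 at 4 hpf, PHKG2, plekhg2 and atp2a2a were no longer called, at -1.13, -1.51 and -0.76. That fit leaves a single 10 pg library at 4 hpf, which is assumed to vary like the other groups. atp2a2a was also not called without 10 pg replicate 1 at 6 hpf, at -1.52.

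The loss at 10 pg was spread over both steps, with the larger median in the first. At 10 pg, 181 members fell between 5 and 4 hpf with a median of -1.90, and 144 fell between 6 and 5 hpf with a median of -1.43. Of all genes, 21.5% and 10.6% were called lower in these steps. In 129 members both steps were called, in 52 only the first, in 15 only the second and in 4 neither. The steps share the 10 pg libraries of 5 hpf, so low values there enlarge the first step and shrink the second. Whether the steps differ in a member was not tested, and this split is not given over all genes. Without 10 pg replicate 1 at 5 hpf, 89 members were called in the second step. hps4, a subunit of a complex that builds lysosome-related organelles, was as low at 5 as at 6 hpf, with 3.71, 3.36 and 3.24 CPM at 5 hpf and 3.25, 2.69 and 2.82 CPM at 6 hpf. In the second step 4 of the 200 members had a fitted change above 0, against 10049 of all 21075 genes, and none of the 4 was called. They were hps4, PHKG2, cep162 (a centriole protein) and KIFC3 (a kinesin), at 0.02, 0.07, 0.11 and 0.48. Other members also stayed near their 5 hpf level, such as PKN2 (-0.06) and rrbp1b (-0.12). In MGAT4A the changes were -0.69 for the first step (adjusted p = 0.19, edgeR) and -2.53 for the second (adjusted p = 0.00020, edgeR). CCNA1 fell in both steps, by 1.29 and then by 1.93 on the log2 scale.

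Members were also compared between 10 pg and control, and between doses of ndr2. Between 10 pg and control at 5 hpf, 0 members were called by edgeR, with 0.223% of all genes called either way. The median difference of the members was -0.10. An unadjusted p below 0.05 was found in 4 of the 200 members, all lower at 10 pg. Of all 21075 genes tested, 391 had such a p with a higher level at 10 pg and 527 with a lower one. DESeq2 also called 0 members. In the difference between the changes from 4 to 6 hpf at 10 pg and at 2 pg, 0 members were called higher and 1 lower, with 7.42% of all genes called higher and 5.19% called lower. The comparison set gave 0 higher and 21 lower there, with a median of -0.71, against 0.26 for the members and 0.17 for all genes. The member called was hps4. It fell by 2.95 ± 0.32 at 10 pg and by 1.68 ± 0.29 at 2 pg, a difference of -1.27 ± 0.42 (adjusted p = 0.043, edgeR). The call was lost in 9 of 11 fits that left out 1 library, with differences of -1.68 to -0.92. At 4 hpf it had 31.6 and 34.7 CPM at 10 pg, against 8.32, 27.9 and 18.1 CPM at 2 pg, and at 6 hpf 2.69 to 3.25 CPM at 10 pg, against 3.30 to 4.26 CPM at 2 pg. The 2 pg explants also had the lowest share of counts in the members at 4 hpf, at 1.35% ± 0.24 (SD, n = 3), against 1.96% ± 0.19 in controls (SD, n = 3), and the part of this in the difference was not tested.

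Genes of the machinery that removes mRNA were followed through 3 lists of that pathway. In CHX over 10 pg at 5 hpf, 11 of 22 genes of the CCR4-NOT and PAN deadenylases rose, 4 fell and 7 did not pass. For decapping and the decay that follows, 11 of 30 rose, 10 fell and 9 did not pass, and for the microRNA pathway 10 of 13 rose and 0 fell. Over all genes, 25% rose and 24.2% fell, and 39.7% rose among genes of at least 10 CPM in controls at 4 hpf. No gene matched on these lists was a member, although CNOT4 (ENSDARG00000007639), a ubiquitin ligase bound to that complex, is one. CNOT4 had 171, 86.7 and 191 CPM with CHX and 22.9, 9.90 and 19.6 CPM at 10 pg. BTG4, which joins the deadenylase to its targets in oocytes, rose by 4.16 (adjusted p = 2.6e-07, edgeR), PAN2, a catalytic deadenylase subunit, by 1.63 (adjusted p = 9.9e-09, edgeR) and AGO2, the microRNA effector, by 1.83 (adjusted p = 2.3e-05, edgeR). BTG1, related to BTG4, fell by 2.23 on the log2 scale (adjusted p = 6.6e-09, edgeR). These are differences between groups at 5 hpf and not changes with age. B was -1.41 in BTG4, 0.23 in PAN2, 1.97 in AGO2 and 2.47 in BTG1. In the same order, A was -6.39, -1.71, -1.16 and 2.345.

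Among oocyte and egg genes, 20 of 43 rose with CHX, 7 fell and 16 did not pass, with a median of 0.69. Between 6 and 4 hpf at 10 pg, 5 of them rose and 29 fell, set against 28.2% and 28.9% of all genes. MOS, the kinase that arrests the egg in meiosis, rose by 2.84 with CHX (adjusted p = 1.6e-08, edgeR), and bmp15, the partner of GDF9 in the ovary, by 4.02 (adjusted p = 8.2e-08, edgeR). Both are outside the members, with B of -0.56 and -1.70, while their A was -3.70 and -4.73.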

How the data were processed

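The authors deposited 1 table of raw gene counts for 45 libraries of total RNA. Per the submitters' processing notes, STAR, featureCounts, DESeq2 and GRCz11 were used. Versions, the strand setting and the annotation release were not given in the sources used here. Gene symbols were matched for 28965 of 31465 genes, and a gene whose symbol belongs to more than 1 gene is printed with its ID where the results turn on it. Groups and doses follow the sample titles. Nothing in the labels says that replicates came from separate clutches, so p-values cover only the spread among these libraries, and that spread may be technical. No sequence table was used here, so no sequence is printed.

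The members and lists were chosen with earlier results of these data known. Counts were tested with edgeR 4.0.16 (quasi-likelihood, robust, TMM scaling, R 4.3.3) on 21075 genes that passed filterByExpr with a minimum count of 10 and a minimum total of 15, and all 200 members passed. The model had 1 coefficient per group over 43 libraries and 28 residual degrees of freedom. P-values were Benjamini-Hochberg adjusted within each of 9 comparisons. Contrasts that the rule used, or that share a group with it in the same condition, were described and not tested. CPM use library totals, and fitted changes use TMM scaling. DESeq2 1.42.0, other scaling, no count filter, a replicate block, only the groups compared, all 45 columns, other settings of the rule and leaving out each library were tried. The fit was also run on simulated counts with changes planted in few genes, which does not probe scaling where many genes change.

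Same-numbered replicates deviated together in every pair for 2 pg (correlations of 0.128 to 0.225) and 6 pg (0.105 to 0.151) at 6 against 4 hpf, and at 5 hpf for CHX against 10 pg (0.379 to 0.508) and against control (0.216 to 0.328). For 10 pg against control at 5 hpf the correlations ran from -0.027 to 0.566. For 10 pg at 6 against 4 hpf they were -0.036 and -0.019. The check covered 10236 genes and only same-numbered libraries, so whether the replicate numbers in the labels pair samples was not settled. The main fit had no replicate term. Genes named were the 12 members with the most negative A, the 8 with the largest rise with CHX, up to 3 members of each of 17 lists, those at the edge of the choice, the 5 smallest falls and members called in the difference between doses, with up to 3 called genes of a list that are no members. Role groups and other members named with values were chosen after their values were seen. Some role groups are not reported here.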

Additional observations from a re-analysis of the deposited data

Results flagged for a closer look

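hps4 was the member whose change between 4 and 6 hpf differed with the dose of ndr2. It changed by -1.68 at 2 pg, by -2.09 at 6 pg and by -2.95 at 10 pg, all on the log2 scale, and the difference of 10 pg minus 2 pg was -1.27 (adjusted p = 0.043, edgeR's quasi-likelihood test). The other 199 members did not pass that test, in which 8 of the 200 members had an unadjusted p below 0.05 in each direction. Of all 21075 genes tested, 3176 had such a p with a higher difference and 2352 with a lower one. The lowest 4 hpf library at 2 pg had 8.32 CPM of hps4, against 18.1 and 27.9 CPM in the other 2 pg libraries. Leaving out 1 library ended the call in 9 of 11 fits, with differences of -1.68 to -0.92. Other settings ended it in 2 of 7.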

How the results depend on the processing

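The counts of members that fell or rose stayed within 1.5 times under the alternatives, apart from the following. The 1 member lower with CHX than in controls at 5 hpf was 0 with library totals only, 0 with only the groups compared and 0 with that and a replicate block, and 0 to 2 when 1 library was left out. In the difference between 10 pg and 2 pg, the members called higher were 1 with only the groups compared and 3 with DESeq2. Those called lower were 0 without a count filter, 0 with only the groups compared, 4 with DESeq2 and 6 with all 45 columns. Leaving out 1 library gave 0 to 5 higher and 0 to 4 lower there, and 89 to 154 members lower between 6 and 5 hpf at 10 pg. With a replicate block over all groups, 188 members were higher with CHX than in controls, as without it, and 143 were lower between 6 and 5 hpf at 10 pg. For CHX over 10 pg at 5 hpf, 185 to 192 members rose under the other settings, the replicate block among them. With B limited to -0.25 to 0.25, 104 of the 200 members were chosen again. Leaving out 1 library kept 151 to 188. Scaling by library totals moved the median of all genes for CHX over control at 5 hpf to 0.49 from 0.05, and 67.5% of called genes were then higher, against 49.5%. For named genes, 862 values stayed on their side of the threshold when 1 library was left out, 13 lost the call and 5 gained it. With n = 2 at 4 hpf in the 10 pg groups, comparisons with that age rest on few libraries. The cause of these shifts was not tested.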

Other observations

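Other gene groups that hold few or no members moved in both directions with CHX over 10 pg at 5 hpf, where 25% of all genes rose and 24.2% fell. Of 32 translation initiation and elongation factors, 0 rose and 25 fell. Of 33 genes of cytoskeleton, adhesion and polarity, 3 rose and 23 fell, and of 27 histone and histone chaperone genes, 3 rose and 20 fell. Of 54 ubiquitin ligase and proteasome genes, 11 rose and 32 fell. Nuclear genes of mitochondria and energy use gave 3 higher and 20 lower of 40, with HK2 as the member among them.

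Germ plasm and germ cell genes gave 9 higher and 2 lower of 16. For DNA replication, which includes WEE2, the counts were 22 higher and 10 lower of 54. For mitosis, which includes CCNA1, they were 19 higher and 15 lower of 58. Genes of poly(A) binding and stored mRNA, which include CPEB1, gave 13 higher and 19 lower of 47. DNA methylation and chromatin genes gave 14 higher and 9 lower of 31, and maternal signalling genes 12 higher and 10 lower of 35. Pluripotency and genome activation factors gave 3 higher and 7 lower of 17, and p53 and apoptosis genes 7 higher and 10 lower of 24.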
